A study of Mus musculus with 21 samples.

Results

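miR-191 and miR-425 are miRNAs cut from a pair of neighbouring hairpins on mouse chromosome 9, and each hairpin gives a 5p and a 3p arm. The 4 mature arms, mmu-miR-191-5p, mmu-miR-191-3p, mmu-miR-425-5p and mmu-miR-425-3p (written without the species prefix from here on), were taken by name from the 1647 mature miRNAs of the count table. They were chosen by the counts of miR-191-5p, which had been seen to be low in 3 libraries of the superior olivary complex (SOC), a group of auditory brainstem nuclei, namely P0 replicate 4, P16 replicate 2 and P16 replicate 3. The question was whether that low level extended to its other arm and to miR-425, and how the arms behaved in the cochlea.

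The study followed both organs through development by miRNA-seq in wild-type, untreated mice (C57BL/6JOlaHsd for the cochlea, C57Bl6/J for the SOC) at embryonic day 16 (E16), at birth (P0) and at postnatal day 16 (P16). SOC libraries numbered 4 for E16, 4 for P0 and 3 for P16, each from brainstem tissue of several animals, and the label gives neuronal as the cell type. The cochlea, labelled as sensory epithelium of the inner ear, had 2 libraries of E16 and 4 of each later age, also from pooled animals of both sexes. SOC RNA was isolated with the innuPREP kit and prepared with TruSeq, whereas cochlear RNA was isolated with Direct-zol and prepared with SMARTer, so a gap in level from one organ to the other cannot be told apart from kit or substrain. Levels of both organs are given side by side, and only their changes over time were tested against each other.

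A miRNA hairpin is released from a primary transcript by Drosha and then cut by Dicer into a short duplex of its 5p and 3p arms. One arm is usually loaded into an Argonaute protein, where its seed pairs with target mRNAs, and the other arm is mostly degraded. Hairpins that lie close together are often released from the same primary transcript, and their arms can still differ in level because each is processed and retained separately. miR-191-5p is abundant in many tissues, and miR-191 and miR-425 are often used as reference miRNAs when other miRNAs are quantified.

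The mature sequences are shown because the 4 arms are told apart in the counts by sequence alone. They were taken from RefSeq (GRCm38.p6), 5′ to 3′, with the seed (bases 2 to 8) in capitals.
miR-191-5p: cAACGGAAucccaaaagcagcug
miR-191-3p: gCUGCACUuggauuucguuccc
miR-425-5p: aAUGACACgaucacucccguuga
miR-425-3p: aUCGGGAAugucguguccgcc
The 4 seeds differed from each other. miR-425-5p shared its seed with 1 other mature miRNA of the RefSeq set, miR-489-3p, and the other 3 arms shared theirs with 0.

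The hairpins show where the arms lie relative to each other, with both arms in capitals.
Mir191: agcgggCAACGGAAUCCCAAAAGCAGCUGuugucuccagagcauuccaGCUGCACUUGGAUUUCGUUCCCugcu
Mir425: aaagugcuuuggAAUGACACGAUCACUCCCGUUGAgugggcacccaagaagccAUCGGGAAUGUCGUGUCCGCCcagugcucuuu
Mir191 lies at chr9:108568319-108568392 and Mir425 at chr9:108568777-108568861 (GRCm38.p6, plus strand), with 384 bases between them. RefSeq places both inside Dalrd3 (chr9:108567484-108572773), a gene for a protein of tRNA methylation. GENCODE M21 starts Dalrd3 only at position 108569886, 1024 bases after the end of Mir425, and places both hairpins in the long intergenic RNA 4833445I07Rik (chr9:108567533-108569174), in the exon of one of its transcripts. Relative to the other transcript of that RNA, Mir191 is intronic and Mir425 lies outside. A miRNA gene of the minus strand, Gm24083, overlaps Mir191. The transcript itself was not measured in these small RNA libraries.

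Total miRNA counts ranged from 8309669 to 18053698 in the SOC and from 124400 to 447419 in the cochlea, so 3 counts, the limit that a count of 0 allows, stood for at most 0.361 CPM (counts scaled to a common library total) in an SOC library and for up to 24.1 CPM in a cochlea library. The summed level of 5 neuronal miRNAs (miR-124-3p, miR-9-5p, miR-9-3p, miR-128-3p and miR-138-5p) was 45763 to 114943 CPM in the SOC and 572 to 5794 CPM in the cochlea. The summed level of 7 epithelial miRNAs (miR-141-3p, the miR-200 family, miR-203-3p and miR-205-5p) was 1618 to 29053 CPM in the cochlea and 45.6 to 1855 CPM in the SOC. The hair cell miRNAs miR-96-5p, miR-182-5p and miR-183-5p summed to 97018 to 147946 CPM in the SOC and 69631 to 71872 CPM in the cochlea at E16. At P16 the sum was 592 to 2901 CPM in the SOC and 10805 to 40102 CPM in the cochlea. miR-96-5p alone was at most 436 CPM in any SOC library (after the TMM normalization described below). Besides the 3 libraries low in miR-191-5p, 4 further SOC libraries (replicates 2 and 3 of E16 and of P0) stood apart, with 17.2% to 19.6% of their counts on miR-99b-5p against 1.43% to 3.84% in the other 7. Levels of single miRNAs below are CPM after TMM normalization, which scales the libraries of an organ so that most miRNAs agree between them. Summed levels are CPM by library total only. All members passed the filter for testing in both organs (2 or more replicates of one age above 1 CPM), which left 694 miRNAs for the SOC and 896 for the cochlea.

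miR-191-5p, the abundant arm of its hairpin, had in the SOC at E16 levels of 49705, 73877, 80196 and 37681 CPM in replicates 1 to 4. At P0 it had 30822, 72742, 82824 and 3273 CPM in replicates 1 to 4. At P16 it had 78532, 2836 and 2644 CPM in replicates 1 to 3. Levels thus fell into a high range, shared by 8 libraries of all ages, and a low one with 1 library of P0 and 2 of P16. The 8 high libraries overlapped between E16 and P0, and the single high library of P16 lay within their range. These values chose the libraries and are given as a description with no test. As a share of counts, the highest of the 3 low libraries had 0.322% (95% Wilson interval 0.318% to 0.326%) and the lowest of the other 8 had 3.84% (3.83% to 3.85%). Such intervals cover counting error only, since copies made by PCR count as separate reads. Since these are bulk samples, fewer cells that express a miRNA cannot be told apart from less of it per cell.

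miR-191-3p, the rare arm of the same hairpin, did not share the low level. Its E16 libraries held 15.5, 9.41, 10.5 and 13.2 CPM in replicates 1 to 4. The P0 libraries held 13.4, 9.81, 7.29 and 19.5 CPM, and the P16 libraries 19.9, 23.6 and 27.2 CPM in replicates 1 to 3. The library of P0 that was lowest in miR-191-5p was the highest of its age in miR-191-3p, and the same held at P16, where both low libraries lay above replicate 1. These levels rest on 93 to 296 counts per SOC library.

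miR-425-5p, the abundant arm of the second hairpin, was likewise not low in those libraries. At E16 it had 209, 193, 135 and 257 CPM in replicates 1 to 4. At P0 it had 105, 92.5, 115 and 242 CPM in replicates 1 to 4, and at P16 it had 238, 311 and 376 CPM in replicates 1 to 3. Its P0 level was highest in replicate 4, and its P16 level was higher in replicates 2 and 3 than in replicate 1.

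miR-425-3p, the rare arm of the second hairpin, stood out in the opposite sense to miR-191-5p. In replicates 1 to 4 of E16 it had 5.04, 7.48, 4.50 and 6.78 CPM. Those of P0 had 4.52, 3.98, 6.27 and 30.4 CPM, and those of P16 had 7.24, 37.3 and 56.9 CPM in replicates 1 to 3. The 3 libraries low in miR-191-5p were the 3 highest in miR-425-3p, with 261 to 594 counts against 43 to 100 counts in the other 8.

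**Figure D1:**
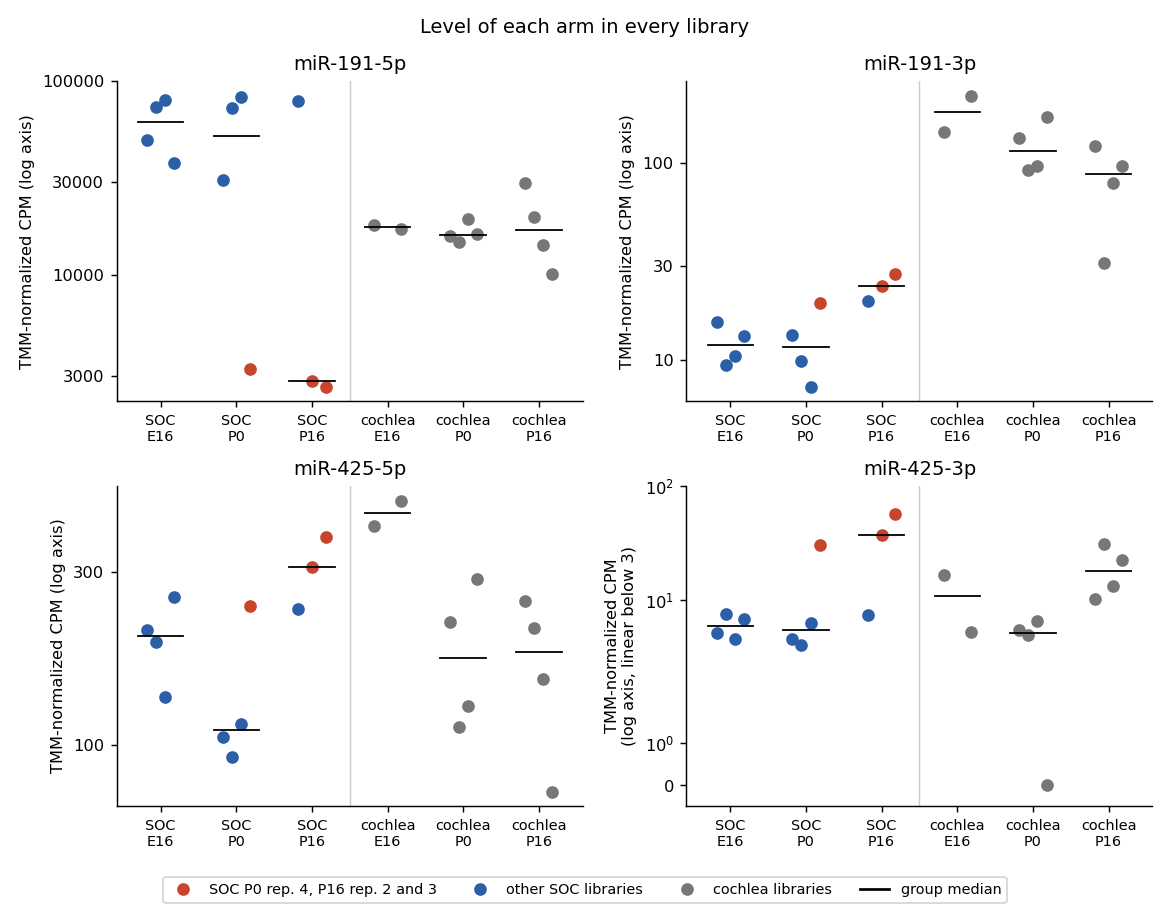
TMM-normalized CPM (vertical, log axes with their own range in each panel, linear below 3 CPM for miR-425-3p) of the 4 arms in each of 21 libraries, by organ and time point (horizontal). Points are libraries, bars are group medians, and red points are the SOC libraries low in miR-191-5p, which lie lowest of the SOC for miR-191-5p and highest of the SOC for miR-425-3p.

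Set side by side, the 3 libraries had a median miR-191-5p level 4.69 log2 units under that of the other 8 (log2 difference -4.69, a 25.9-fold lower level), while the other 3 arms had a higher median. The difference was 1.01 for miR-191-3p (19.5 to 27.2 CPM against 7.29 to 19.9 CPM, ranges that overlapped). It was 0.94 for miR-425-5p (242 to 376 CPM against 92.5 to 257 CPM, also overlapping). For miR-425-3p it was 2.73 (30.4 to 56.9 CPM against 3.98 to 7.48 CPM, with no overlap). The place of miR-191-5p wholly below was fixed by the choice of the libraries, and of the other 3 members 0 lay wholly below and 1 wholly above. Among all 694 miRNAs tested in the SOC, 17.7% lay wholly below and 15.9% wholly above, and 5% of their differences were below -4.70 and 5% above 3.20, so that the libraries differed widely in many miRNAs. A lower difference than that of miR-191-5p was seen in 5.04% of the tested miRNAs, and one lower than that of miR-425-3p in 90.9%.

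**Figure D2:**
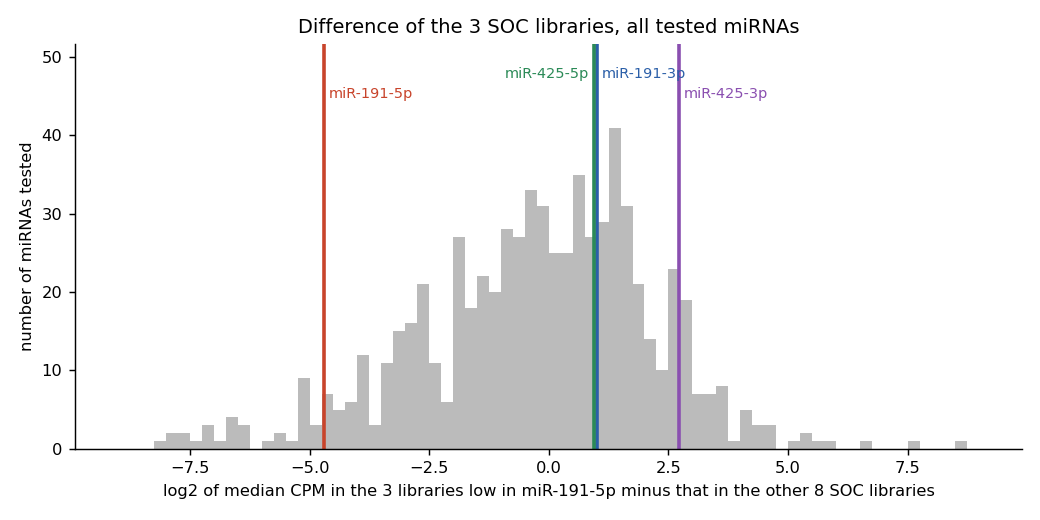
Number of miRNAs (vertical) by the log2 difference between the median CPM of the 3 SOC libraries low in miR-191-5p and that of the other 8 (horizontal), for 694 tested miRNAs in grey. Coloured lines mark the members at -4.69 (miR-191-5p), 0.94 (miR-425-5p), 1.01 (miR-191-3p) and 2.73 (miR-425-3p).

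Age differed between these sets, since 2 of the 3 libraries were of P16 and only 1 of the other 8 was, so each was also set against the remaining libraries of its own age. The P0 library had 0.0450 times the median miR-191-5p level of the other 3 P0 libraries, and the P16 libraries had 0.0361 and 0.0337 times the level of P16 replicate 1. For miR-191-3p the corresponding ratios were 1.99, 1.19 and 1.36. For miR-425-5p they were 2.29, 1.31 and 1.58. For miR-425-3p they were 6.71, 5.15 and 7.85. The direction for each arm was thus the same in all 3 libraries, and the P16 ratios rest on a single library for comparison.

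The ratio of arm counts within a library does not depend on the library total. The 8 other SOC libraries held 2303 to 11368 miR-191-5p counts for each miR-191-3p count, and the 3 libraries held 168, 120.0 and 97.3. In the cochlea, prepared with other kits, the ratio was 78.5 to 639. The ratio of miR-425-5p to miR-425-3p was 18.3 to 41.4 in the 8 SOC libraries and 7.97, 8.32 and 6.62 in the 3. The miR-425 ratio was thus lower in the 3 libraries with no overlap, alongside more 3p counts. The low miR-191 ratio holds the miR-191-5p counts that chose the libraries, and nothing is read from its separation. Between the abundant arms, the ratio of miR-191-5p to miR-425-5p was 147 to 787 in the 8 libraries, 13.5, 9.13 and 7.03 in the 3, and 36.5 to 152 in the cochlea, and it too holds the counts that chose the libraries. Between the rare arms, the ratio of miR-191-3p to miR-425-3p was 1.16 to 3.07 in the 8 libraries and 0.478 to 0.644 in the 3.

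**Figure D3:**
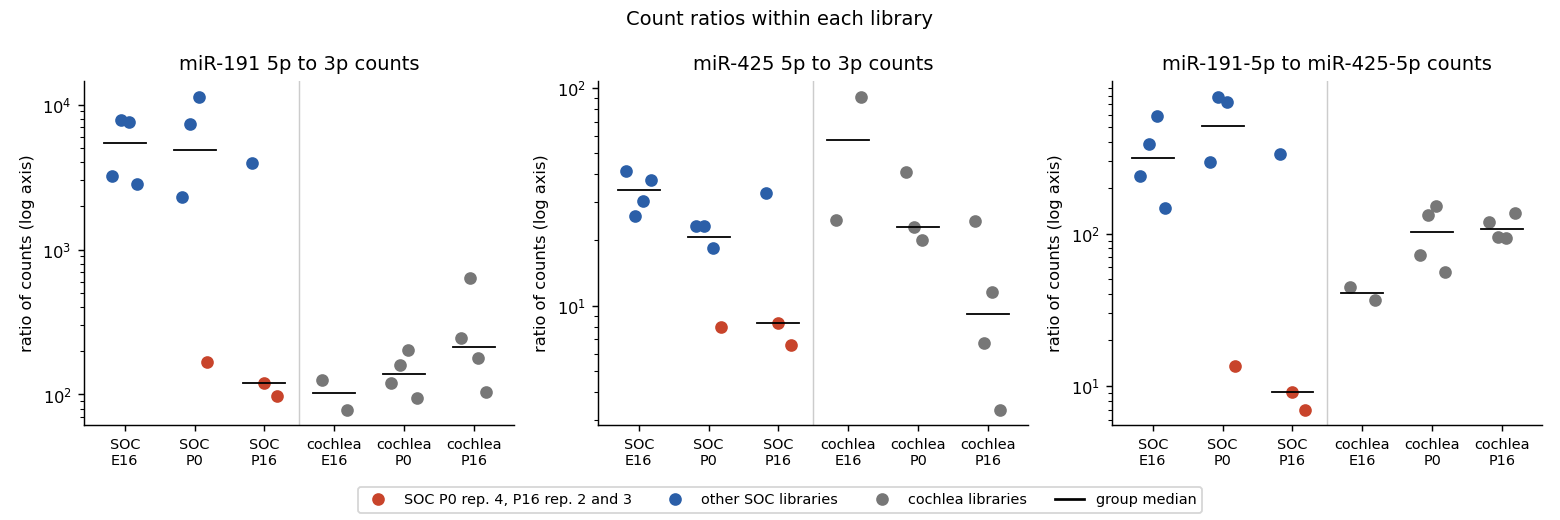
Ratio of counts within each library (vertical, log axes) for miR-191-5p to miR-191-3p, miR-425-5p to miR-425-3p and miR-191-5p to miR-425-5p, by organ and time point (horizontal); a cochlea library with 0 counts of miR-425-3p has no point in the middle panel. Red points, the 3 SOC libraries, lie below the other 8 in the middle panel and, through the miR-191-5p counts that chose them, in both outer panels; bars are group medians.

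For context, the same values were computed for hairpins with both arms tested in the SOC and named alike apart from 5p or 3p. Hairpins with arms named differently, such as let-7c-5p and let-7c-1-3p, were left out, so the counts do not cover every hairpin. Of the 206 hairpins included, 88 had neither arm wholly above or below. A further 52 had 1 arm wholly below and the other overlapping, as miR-191 did, and 36 had 1 arm wholly above and the other overlapping, as miR-425 did. Both arms were wholly below for 17 hairpins and wholly above for 8, and 5 had 1 arm wholly below and the other wholly above. The difference of the 5p arm minus that of the 3p arm was -5.70 for miR-191, and 1 of the 206 hairpins had a lower one. It was -1.79 for miR-425, and 38 hairpins had a lower one, beside a median of 0.13. Neighbouring hairpins were compared through their leading arms, where both averaged 100 CPM or more and lay within 1000 bases. Of 18 such pairs, 8 had both arms in the same position, the median absolute difference was 1.20, and that of Mir191 and Mir425 was 5.64, with 0 pairs above it. miR-191 was chosen for its low level, so its place in these lists is a description.

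Among the 175 miRNAs that averaged 100 CPM or more in the SOC, the 5 that separated furthest below the other libraries were miR-361-5p, miR-2137, miR-335-3p, miR-191-5p and miR-145a-5p. miR-361-5p had 16.8 to 26.6 CPM in the 3 libraries and 437 to 737 CPM in the other 8, and miR-145a-5p, known from smooth muscle, had 6.57 to 11.3 CPM against 74.2 to 274 CPM. The 5 furthest above were miR-598-3p, miR-124-3p, miR-126a-3p, miR-433-5p and miR-770-3p. miR-124-3p, an abundant miRNA of neurons, had 16733 to 27246 CPM against 1705 to 5594 CPM (other neuronal miRNAs lay wholly below, as given further on), and miR-126a-3p, a miRNA of endothelial cells, had 3735 to 7481 CPM against 821 to 1361 CPM.

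Other measures moved with the 3 libraries. Their totals, 8309669 to 9956051 counts, were the 3 lowest of the SOC, beside 10090519 to 18053698 in the other 8. In the marker lists that follow, sums are CPM by library total, and single miRNAs are CPM after TMM normalization. The summed level of the red blood cell miRNAs miR-451a and miR-144-3p was 131 to 198 CPM against 28.1 to 76.1 CPM in the other 8. The muscle list (miR-1a-3p, miR-206-3p and miR-133a-3p) was at 9.65 to 10.6 CPM against 12.2 to 276 CPM. The high end was that of E16 (96.9 to 276 CPM), an age absent from the 3 libraries. Of its 2 tested members, miR-1a-3p lay wholly below and miR-206-3p overlapped. The summed level of the 5 neuronal miRNAs overlapped, with 49908 to 57298 CPM against 45763 to 114943 CPM, but its members moved in both directions. Of the 5, 1 lay wholly above (miR-124-3p), 1 overlapped (miR-138-5p) and 3 lay wholly below, namely miR-9-5p (7687 to 21363 CPM against 33600 to 113490 CPM), miR-9-3p (58.6 to 165 CPM against 312 to 1088 CPM) and miR-128-3p (324 to 376 CPM against 859 to 4148 CPM). The summed epithelial list overlapped (54.2 to 153 CPM against 45.6 to 1855 CPM), and 2 of its 4 tested members, miR-203-3p and miR-205-5p, lay wholly below. The summed levels of the oligodendrocyte miRNAs miR-219a-2-3p and miR-338-3p (167 to 3119 CPM against 338 to 6418 CPM), the leukocyte miRNAs miR-142a-3p, miR-142a-5p and miR-223-3p (14.8 to 17.7 CPM against 15.96 to 92.0 CPM) and the hair cell miRNAs (592 to 4236 CPM against 2901 to 147946 CPM) also overlapped, with miR-142a-5p of the leukocyte list wholly below. The part of depth and of these cell types in the levels of the members was not tested.

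Across development in the SOC, 0 of the 3 members tested met all criteria in any comparison (no overlap between the libraries of both ages, a change of more than 1.5-fold, and an FDR under 0.05 by edgeR's quasi-likelihood test). The share of all tested miRNAs that did was 6.63% for P0 vs E16, 41.2% for P16 vs E16 and 16.1% for P16 vs P0. At an unadjusted p under 0.05 there were 0, 2 and 2 of the 3 members in these comparisons, and DESeq2 called 0, 1 (miR-191-3p) and 0. miR-425-3p came closest, with a log2 fold change of 2.50 ± 0.785 (SE) for P16 vs E16 and an FDR of 0.0226 by edgeR. P16 replicate 1 (7.24 CPM) lay below replicate 2 of E16 (7.48 CPM), and without the 3 libraries low in miR-191-5p the log2 fold change was 0.23 (FDR 0.757 by edgeR). Its P0 vs E16 value of 0.91 ± 0.724 turned to -0.21 without them.

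miR-191-3p had no overlap between P16 and E16, with a log2 fold change of 0.96 ± 0.403 (SE), and the FDR was 0.0737 by edgeR. P16 and P0 were also without overlap, at 0.92 ± 0.404 and an FDR of 0.122. Their gap was small, with 19.9 CPM in P16 replicate 1 and 19.5 CPM in P0 replicate 4. As shares of counts the ages overlapped, since these libraries had 0.00165% and 0.00188%. With the 3 libraries low in miR-191-5p left out, P16 was replicate 1 alone. The log2 fold change was then 0.67 for P16 vs E16 and 0.86 for P16 vs P0. The mean was 12.1 ± 2.73 CPM at E16 (SD, n = 4) and 12.5 ± 5.31 CPM at P0 (SD, n = 4), with 23.6 ± 3.62 CPM at P16 (SD, n = 3), and the P0 vs E16 log2 fold change was 0.04 ± 0.377. E16 and P0 thus did not differ beyond their spread, and P16 was the highest group without meeting the criteria.

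miR-425-5p had means of 198 ± 50.0 CPM at E16 (SD, n = 4) and 139 ± 69.4 CPM at P0 (SD, n = 4), with 308 ± 69.4 CPM at P16 (SD, n = 3). Its log2 fold change was -0.52 ± 0.392 (SE) for P0 vs E16, 0.64 ± 0.419 for P16 vs E16 and 1.15 ± 0.419 for P16 vs P0, with an FDR of 0.489, 0.232 and 0.0719 by edgeR. P0 was below E16 in each of the 4 pairs of libraries with the same replicate number, and with that number as a block the log2 fold change was -0.61 (FDR 0.309 by edgeR). Neighbours in the order P0, E16, P16 did not meet the criteria in either fit. Without the 3 libraries low in miR-191-5p the values were -0.87 for P0 vs E16 and 0.21 for P16 vs E16, and with the 4 libraries of high miR-99b-5p left out they were -0.47 and 0.36.

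In the cochlea, miR-191-5p ranged over 10117 to 29918 CPM and did not differ between ages beyond the spread of its libraries. At E16 it had 18127 and 17323 CPM in replicates 1 and 2. At P0 it had 15933, 14801, 19513 and 16199 CPM in replicates 1 to 4, and at P16 it had 29918, 19898, 14199 and 10117 CPM in replicates 1 to 4. The log2 fold changes were -0.09 ± 0.402 (SE) for P0 vs E16, 0.06 ± 0.405 for P16 vs E16 and 0.16 ± 0.330 for P16 vs P0. The FDR was 0.907, 0.933 and 0.816 by edgeR. All 3 ages overlapped, and P16 had the widest spread, with a mean of 18533 ± 8585 CPM (SD, n = 4) against 16612 ± 2027 CPM at P0 (n = 4).

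miR-425-5p fell after E16 in the cochlea. It had 403 and 474 CPM at E16 in replicates 1 and 2. At P0 it had 219, 112, 128 and 288 CPM in replicates 1 to 4, and at P16 it had 250.0, 210.1, 153 and 74.3 CPM in replicates 1 to 4. Both E16 libraries lay above every later one, and P0 and P16 overlapped. The log2 fold change was -1.23 ± 0.466 (SE) for P0 vs E16 (FDR 0.0363 by edgeR) and -1.34 ± 0.470 for P16 vs E16 (FDR 0.0168 by edgeR), while P16 vs P0 was at -0.11 ± 0.416 (FDR 0.931). It was the only member called, 1 of 4 in each of these comparisons, which is near the share of all tested cochlear miRNAs. Of those, 24.4% were called in either direction for P0 vs E16 and 29.6% for P16 vs E16. Called lower were 16.6% and 18.6%. The call for P0 vs E16 was lost without replicate 1 or 2 of E16 or replicate 2 or 3 of P0 (FDR 0.138, 0.244, 0.116 and 0.0900), and that for P16 vs E16 without replicate 1 or 2 of E16 or replicate 4 of P16 (FDR 0.0742, 0.120 and 0.0658). Both calls were also lost with the replicate number as a block (FDR 0.201 and 0.0903 by edgeR) and in one fit of both organs (FDR 0.174 and 0.142). These levels rest on 148 and 273 counts at E16 and on 10 to 52 counts at P0 and P16.

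miR-191-3p had 144 and 221 CPM at E16 in the cochlea. It had 134, 92.5, 96.3 and 172 CPM at P0 in replicates 1 to 4, and 122, 31.1, 79.7 and 96.6 CPM at P16 in replicates 1 to 4. The P16 libraries lay below both E16 libraries, with a log2 fold change of -1.12 ± 0.543 (SE) and an FDR of 0.0941 by edgeR, which missed the threshold. For P0 vs E16 the log2 fold change was -0.56 ± 0.534 (FDR 0.446) and for P16 vs P0 it was -0.56 ± 0.485 (FDR 0.475).

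miR-425-3p was close to the limit of detection in the cochlea. It had 6 and 3 counts at E16 in replicates 1 and 2. The P0 libraries held 1, 1, 1 and 0 counts in replicates 1 to 4, and at P16 it had 2, 4, 2 and 3 counts in replicates 1 to 4. With so few counts its fold change is not given, since P0 lay at or under 3 counts in every library, and 0 of the cochlear comparisons called it.

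**Figure D4:**
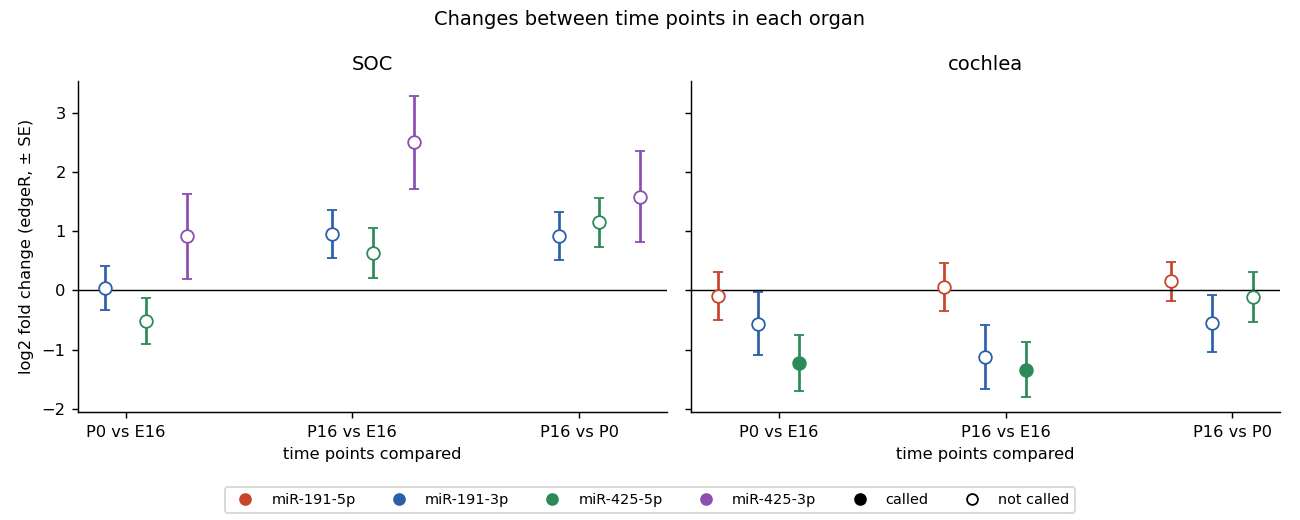
log2 fold change by edgeR (vertical, points, with ± SE bars) of the members between time points (horizontal) in the SOC (left) and the cochlea (right). Filled points met all criteria, which only miR-425-5p did, in the cochlea at P0 vs E16 (-1.23) and P16 vs E16 (-1.34); miR-191-5p in the SOC and miR-425-3p in the cochlea are not plotted.

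The organs were compared through the difference of their changes, in one edgeR fit of all 21 libraries over 545 miRNAs. For P16 vs E16 the SOC change minus the cochlea change was 1.91 ± 0.720 (SE, FDR 0.0689) for miR-191-3p and 1.83 ± 0.704 (FDR 0.0751) for miR-425-5p. Both values were positive, and neither passed the threshold of 0.05. For P0 vs E16 the differences were 0.50 ± 0.701 (FDR 0.645) and 0.61 ± 0.688 (FDR 0.565). For miR-425-3p, which had 0 to 6 counts per cochlea library, the FDR was 0.296 for P0 vs E16 and 0.457 for P16 vs E16. Thus 0 of 3 members had a difference past the threshold, where 11.9% of all miRNAs did for P0 vs E16 and 16.9% for P16 vs E16. At an unadjusted p under 0.05 there were 0 and 2 of them, and DESeq2 called 0 and 2 (miR-191-3p and miR-425-5p at P16 vs E16). Without the 3 SOC libraries the P16 vs E16 differences were 1.42 (FDR 0.273) for miR-191-3p and 1.22 (FDR 0.297) for miR-425-5p.

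Ratios within libraries were tested between ages by exact two-sided permutation tests of the mean log2 ratio, 9 in all with Benjamini-Hochberg adjustment. In the SOC the mean log2 ratio of miR-425-5p to miR-425-3p was 5.04 ± 0.312 (SD, n = 4) at E16 and 4.06 ± 0.730 (SD, n = 4) at P0, and P16 had 3.60 ± 1.24 (SD, n = 3). The difference for P0 vs E16 was -0.98, with all P0 libraries below all E16 libraries and an exact permutation p of 0.0286, the smallest that 4 against 4 allow, and an adjusted p of 0.193. In the cochlea the mean log2 ratio of miR-191-5p to miR-425-5p was 5.34 ± 0.210 (SD, n = 2) at E16 and 6.55 ± 0.674 (SD, n = 4) at P0, and P16 had 6.74 ± 0.254 (SD, n = 4). The difference for P16 vs E16 was 1.40, with no overlap, an exact permutation p of 0.0667, the smallest that 2 against 4 allow, and an adjusted p of 0.193. Each of the 9 ratio tests had a smallest possible exact permutation p of 0.0286 or 0.0667. After adjustment over all 9, none could therefore fall under 0.05, whatever the values. The lowest adjusted p was 0.193, and no conclusion is drawn from the lack of a call.

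Likeness over libraries was measured by Pearson's r of log2 CPM with a prior count of 2 and is given as a description, since the SOC points share the 3 libraries that stand apart. In the SOC, over 11 libraries, the miRNAs most like miR-191-5p were miR-361-5p (r = 0.99), miR-329-3p (0.98), miR-342-3p (0.97), miR-186-5p (0.97) and miR-145a-5p (0.97). Its own 3p arm had r = -0.80, miR-425-5p -0.67 and miR-425-3p -0.94. Over the other 8 libraries alone, miR-361-5p stayed at 0.88, while miR-329-3p had 0.71, miR-342-3p 0.68, miR-186-5p 0.64 and miR-145a-5p 0.51. The 3p arm then had -0.36, miR-425-5p -0.10 and miR-425-3p 0.17. The miRNAs most like miR-425-5p were miR-652-3p (0.93, and 0.90 over the 8), miR-484 (0.89 and 0.85), miR-151-5p (0.80 and 0.59), miR-744-5p (0.80 and 0.58) and miR-674-3p (0.77 and 0.75). With miR-425-5p, miR-191-3p had 0.81 and 0.59, and miR-425-3p had 0.78 and 0.72.

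In the cochlea, over 10 libraries of low depth, the miRNAs most like miR-191-5p were let-7f-1-3p (r = 0.88), miR-1839-3p (0.82), miR-30c-5p (0.68), miR-204-5p (0.64) and miR-222-3p (0.61). miR-425-5p had r = 0.52 with it and ranked in place 13 among miRNAs of this abundance. Its own 3p arm had r = -0.006 (place 129), and miR-425-3p, close to the limit of detection, had -0.04. Those most like miR-425-5p were miR-199a-5p (0.92), miR-186-5p (0.87), miR-376c-3p (0.87), miR-361-5p (0.86) and miR-30c-5p (0.83). With miR-425-5p, miR-191-3p had 0.48 and miR-425-3p -0.26.

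miRNAs often used as reference beside miR-191 and miR-425 were examined as a list of 14. In the SOC, 0 of 14 were called for P0 vs E16 and for P16 vs P0, beside 6.63% and 16.1% of all tested miRNAs, and 1 for P16 vs E16, beside 41.2%. This was miR-30c-5p, at a log2 fold change of -1.42 ± 0.450 (SE, FDR 0.0237 by edgeR), named after its value was seen. At an unadjusted p under 0.05 there were 0 of 14 for P0 vs E16 and 2 for P16 vs P0, and DESeq2 called 0 in both. In the 3 libraries low in miR-191-5p, 6 of 14 lay wholly below the other 8 libraries (miR-186-5p, miR-361-5p, miR-423-3p, miR-423-5p, miR-26b-5p and miR-30c-5p), 3 wholly above (miR-16-5p, miR-24-3p and miR-484) and 5 overlapped, beside 17.7% wholly below and 15.9% wholly above among all tested miRNAs. miR-186-5p had 89.2 to 259 CPM against 1237 to 6223 CPM, and miR-16-5p had 29340 to 65414 CPM against 8121 to 17173 CPM. Some of the list were barely counted in the SOC. miR-26b-5p had 0.106 to 1.05 CPM against 1.48 to 12.7 CPM. The overlapping let-7a-5p and miR-103-3p had at most 4.75 and 6.51 CPM in any SOC library.

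In the cochlea, 8 of 14 reference miRNAs were called for P0 vs E16, 7 for P16 vs E16 and 5 for P16 vs P0, beside 24.4%, 29.6% and 10.5% of all tested miRNAs. Of these, 2, 1 and 1 were higher and 6, 6 and 4 lower at the later age, and the median log2 fold changes of the list were -1.37, -0.92 and -0.56, beside 0.00, -0.09 and 0.05 over all tested miRNAs. For P16 vs E16, miR-93-5p had a log2 fold change of -3.42 ± 0.391 (SE, FDR 2.34e-16 by edgeR) and miR-25-3p of -2.80 ± 0.393 (FDR 3.83e-11), both from the cluster related to miR-17 that acts in proliferating cells. miR-186-5p had -2.78 ± 0.441, miR-484 -1.82 ± 0.389 and miR-361-5p -1.63 ± 0.422 in the same comparison. miR-24-3p was higher, at 1.37 ± 0.429 (FDR 0.00677 by edgeR). Beside these, miR-191-5p had the small changes given above, and miR-425-5p was lower at both later ages, with calls that were lost under several settings, as given above.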

How the data were processed

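The authors deposited raw counts of reads per mature miRNA and library, not normalized, in one table. The submitters' processing notes name Bowtie2 2.2.5, DESeq2 and mm10; the study's methods describe Bowtie alignment to mouse miRNAs of MirGeneDB, but the deposited table has miRBase names, and the counting step behind these is not given in the sources used here. Each of the 21 count columns matched one label, and 0 were left out. Total counts were 124400 to 447419 in the cochlea and 8309669 to 18053698 in the SOC.

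The members and lists were chosen with earlier results of these data known, and the comparisons with other hairpins were added after seeing the values. Named miRNAs were the members, 14 reference miRNAs (at most 6 with values, those with the largest called change), the 5 most alike in each organ, and the 5 separated furthest below and above among those that averaged 100 CPM or more. Values of miR-16-5p, miR-30c-5p, miR-26b-5p, miR-103-3p and let-7a-5p were added after they were seen. Each organ was fitted with edgeR 4.0.16 in R 4.3.3 (TMM, quasi-likelihood F test, Benjamini-Hochberg FDR over all miRNAs tested). The filter asked for 2 or more replicates of one age above 1 CPM. SE was obtained from the log2 fold change and F. miR-191-5p in the SOC was not tested because it chose the libraries. Ratio tests added 0.5 to each count. Libraries of a group differed by at least 5.95 chi-square units per degree of freedom in 28 pairs, so none was a copy. SOC libraries of E16 and P0 with the same number deviated together (r = 0.26 to 0.52 in 4 of 4 pairs), a pairing from the values alone. Pairs with P16 or in the cochlea did not all do so, and P0 and P16 went opposite ways for replicate 2 (r = -0.57) and replicate 3 (-0.67). Different numbers also went together for E16 replicate 3 with P0 replicate 2 (r = 0.49) and E16 replicate 2 with P0 replicate 3 (0.33). These libraries are those rich in miR-99b-5p, and among them the values do not single out the number. The other E16 and P0 pairs of different number had r = -0.41 to 0.10. Stronger values were seen between P0 and P16. P0 replicate 4 went with P16 replicates 2 and 3 (r = 0.82 and 0.83), the libraries low in miR-191-5p, and opposite to P16 replicate 1 (-0.89). P0 replicates 2 and 3 went with P16 replicate 1 (0.61 and 0.66). Each sample pooled tissue of several animals, and p-values measure the spread between these samples. As alternatives, counts were also fitted by DESeq2 1.42.0, with RLE size factors or library totals, with other filters, in one fit of both organs, with a block for the replicate number, and without single libraries or sets of them. Sequences came from RefSeq (GRCm38.p6), in which 1415 of 1647 names matched. Scripts were tested on simulated data (Python 3.11.15 with numpy 2.4.6, pandas 2.3.3, matplotlib 3.10.9).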

Additional observations from a re-analysis of the deposited data

Results flagged for a closer look

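In the SOC at P0, replicate 4 lay far from the other 3 replicates in both arms of miR-425. For miR-425-5p its gap to the nearest replicate was 0.851 of the whole range of the group, and for miR-425-3p it was 0.913, where Dixon's 95% critical value for 4 libraries is 0.829. Both gaps were taken on CPM. On a log2 scale, as used for the fold changes, the gap of a high library is a smaller part of the range, so the flags hold for CPM only. These were 2 of 28 groups of 4 libraries checked over the levels and ratios of the members, and chance flags about 1 in 20. The same library was among the 3 low in miR-191-5p, and without it the P0 vs E16 log2 fold change was -0.87 for miR-425-5p and -0.22 for miR-425-3p, against -0.52 and 0.91 with it.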

How the results depend on the processing

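Of 236 results under other settings (not counting single libraries left out), 205 kept their direction and their side of the threshold. Leaving out the 3 SOC libraries low in miR-191-5p turned P0 vs E16 to -0.19 for miR-191-3p and -0.21 for miR-425-3p, the P16 vs E16 difference between the organs to -0.91 for miR-425-3p and the P16 vs P0 log2 ratio of the miR-425 arms to 0.61, and brought 1 reference miRNA past the criteria for P0 vs E16. With the replicate number as a block, miR-191-3p in the SOC was at -0.021 for P0 vs E16 and passed for P16 vs E16 (1.14). SOC libraries of E16 and P16 with the same number did not deviate together (r = -0.10 to 0.03), so that pass rests on no pairing seen in the values. In the cochlea, the block put miR-191-5p at 0.14 for P0 vs E16, and miR-425-5p no longer passed (-1.12 for P0 vs E16 and -1.23 for P16 vs E16). The block changed no other call. With all libraries in one fit those cochlear values were -1.22 and -1.25 and also missed the threshold, while miR-191-3p (1.41) and miR-425-3p (3.06) passed in the SOC for P16 vs E16 and miR-425-5p (1.51) for P16 vs P0. With at least 10 counts in every library, miR-191-3p was at -0.070 in the SOC for P0 vs E16 and passed for P16 vs E16 (1.02) and P16 vs P0 (1.09), miR-425-3p passed for P16 vs E16 (2.53), miR-425-5p passed for P16 vs P0 (1.34) and in the difference between the organs at P16 (2.29), and cochlear miR-425-5p was at 0.070 for P16 vs P0. Without a filter, miR-191-3p in the SOC was at -0.0092 for P0 vs E16. DESeq2 called miR-191-3p in the SOC for P16 vs E16 (0.96) and the P16 difference between the organs for miR-191-3p (1.85) and miR-425-5p (1.79). With library totals these differences were 2.57 and 2.57 and passed, miR-191-3p passed in the cochlea for P16 vs E16 (-1.55), and miR-191-5p was at -0.45 there. Against libraries of the same age only, the difference of the 3 libraries for miR-191-3p was 0.45.

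Leaving out one library at a time gave these ranges where a call or a sign changed. In the SOC, miR-191-3p ranged from -0.19 to 0.15 for P0 vs E16, from 0.85 to 1.19 for P16 vs E16 and from 0.82 to 1.22 for P16 vs P0; miR-425-3p from -0.22 to 1.22, from 1.96 to 3.10 and from 1.18 to 2.82; and miR-425-5p for P16 vs P0 from 1.01 to 1.57. In the cochlea, miR-425-5p ranged from -1.51 to -1.08 for P0 vs E16, from -1.66 to -1.12 for P16 vs E16 and from -0.41 to 0.17 for P16 vs P0; miR-191-5p from -0.33 to 0.26 for P16 vs E16 and from -0.22 to 0.36 for P16 vs P0; miR-191-3p for P16 vs E16 from -1.40 to -0.79; the log2 ratio of miR-191-5p to miR-425-5p for P16 vs P0 from -0.059 to 0.41; and that of the miR-425 arms for P0 vs E16 from -1.48 to 0.30. The P16 difference between the organs ranged from 1.65 to 2.39 for miR-191-3p and from 1.53 to 2.11 for miR-425-5p. The cause of these changes was not tested. Depth limits the cochlear values of miR-425-3p, which had 0 to 6 counts, and 2 cochlear libraries at E16 limit every comparison with that age.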
